A study of Homo sapiens with 6 samples.

Results

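The set examined was 33 genes of insulin, PI3-kinase and mTOR signalling, taken by gene symbol from the 58735 genes of the deposited expression table by their roles in the pathway. The list was drawn up with earlier results of these data known. It held receptors, adaptors, PI3-kinase subunits, the kinases PDK1 and AKT, the TSC and RHEB switch, mTOR complex subunits, S6 kinases, eIF4E with its binding proteins, GSK3 kinases and FOXO factors. All 33 symbols were found, and 32 reached a mean of 1 FPKM, the level required for testing. FPKM is a count scaled to gene length and library size. The length used was that of all annotated exons of a gene merged, such as 1073 bases for EIF4EBP1 and 14067 for EIF4E. Where the expressed transcript is shorter than this, FPKM understates its level. Rankings, shares and ratios between different genes are therefore approximate, while the same gene can be compared between libraries. PIK3R2 was the member below that level.

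RNA came from HEK293 cells, a human embryonic kidney line, in 2 stably expressing forms with 3 poly-T selected libraries each. One form carried tensin 2 with a tyrosine replaced by glutamate (Y483E), a residue used to resemble phosphotyrosine. The other carried tensin 2 with phenylalanine at that place (Y483F), which cannot be phosphorylated. No parental or wild-type tensin 2 cells were analysed here, both forms share the HEK293 background and a tensin 2 transgene, and the labels do not say how many clones stood behind each form. A difference between cell lines and an effect of the mutation therefore cannot be told apart. The labels call the libraries biological replicates without naming separate cultures, so the p-values below measure the spread between these libraries, which may be technical. In each form the libraries carry the submitters' numbers 1, 4 and 5, which are replicates 1, 2 and 3 here.

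Insulin and the insulin-like growth factors bind receptor tyrosine kinases, which phosphorylate IRS adaptor proteins. Phosphorylated IRS proteins recruit PI3-kinase, whose lipid product brings PDK1 and AKT to the membrane. AKT then inhibits GSK3, FOXO factors and the TSC complex, and release of RHEB from TSC switches on mTORC1, which acts on S6 kinases and the eIF4E-binding proteins. Most of these steps are phosphorylation events, so transcript levels describe the supply of the components and not the activity of the pathway. Tensin 2 has itself been described as a phosphatase that acts on IRS1 and as a brake on AKT signalling.

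Libraries held between 17204498 and 23284592 reads over genes. TNS2, the gene of the expressed protein, was at 0.753, 1.04 and 1.05 FPKM in Y483E replicates 1, 2 and 3 and at 1.07, 1.16 and 1.16 FPKM in Y483F. This level is low, near the 1 FPKM required for testing, and every Y483E library lay below every Y483F library. It does not check the labels, since both forms are labelled as expressing tensin 2 and reads of a transgene and of the cells' own gene cannot be told apart. On the first principal component of all tested genes, with 40.94% of the variance, the Y483E libraries lay between -13.4 and -4.94. Y483F replicates 2 and 3 lay at 17.0 and 12.9, but Y483F replicate 1, at -5.70, stood with Y483E. The second component, with 21.57% of the variance, set the replicates 1 of both forms apart. They lay at -9.36 in Y483E and -11.5 in Y483F, and replicates 2 and 3 of both forms lay between 0.926 and 9.03. Results over all libraries are therefore given beside those without the replicates 1, a contrast picked with earlier results known. NEFL and IRS4, transcripts known in HEK293 cells, were high in every library, and other markers of the line were low, with CD24 at 1.79 to 2.73 FPKM and NEFM at 0.200 to 0.314 FPKM. Summed markers of fibroblasts, leukocytes, hepatocytes and endothelial cells stayed under 1 FPKM for each cell type in every library. COL1A2, PTPRC, CD3E and SERPINA1, defining markers of the first 3 of these cell types, were at 0.

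Across all 6 libraries no member of the pathway passed the test. limma called 0 of the 32 members, against 0% of all 12833 genes tested, at an adjusted p of 0.05. At an unadjusted p under 0.05 limma gave 3 members, EIF4EBP1, GRB10 and PDPK1, against 12.2% of all genes. On the reads recovered from the FPKM values edgeR called 0 members, against 0.0438% of genes, with 5 members at an unadjusted p under 0.05, against 13.4% of genes. DESeq2 called 1 member, EIF4EBP1, against 0.404% of the 31210 genes it tested, which include genes with few reads. In bulk RNA, fewer cells that express a gene and less of its RNA per cell cannot be told apart. In limma 18 members were fitted higher and 14 lower in Y483E (background 52.8% higher), with a median log2 difference of 0.025, beside 0.0070 for all genes. The fitted differences ran between -0.16 for TSC2 and 0.40 for EIF4EBP1. The Y483E and Y483F libraries did not overlap for 4 of the 32 members (12.5%), against 17.1% of all genes. RPTOR and GSK3B were higher in every Y483E library (background 9.72%), and IRS4 and PDPK1 were lower (background 7.37%).

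The picture was different in replicates 2 and 3. There edgeR called 9 of 32 members (28.1%), against 15% of all genes and 17.9% of those genes that reach 1 FPKM on average. EIF4EBP1, GRB10, FOXO3, MLST8 and RHEB rose in Y483E (background 7.07% higher), and TSC2, IRS2, IRS4 and AKT2 fell (background 7.98% lower). In the same libraries limma called 3 members, EIF4EBP1, GRB10 and TSC2, against 5.45% of genes. With 2 libraries a form, these calls rest in part on a spread shared across genes. Leaving out Y483F replicate 1 alone, edgeR called 3 members, EIF4EBP1, GRB10 and TSC2, against 6.1% of genes. Leaving out Y483E replicate 1 alone, it called EIF4EBP1, against 1.06% of genes. Array weights, which let limma trust the libraries unequally, gave 5 members, EIF4EBP1, GRB10, TSC2, RHEB and IRS4, against 14.7% of genes, and edgeR with no filter on low counts gave 2, against 2.15%. With a term for library number, 1 against 4 and 5 together, limma and edgeR called 0 members, against 0% and 1.02% of genes.

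**Figure D1:**
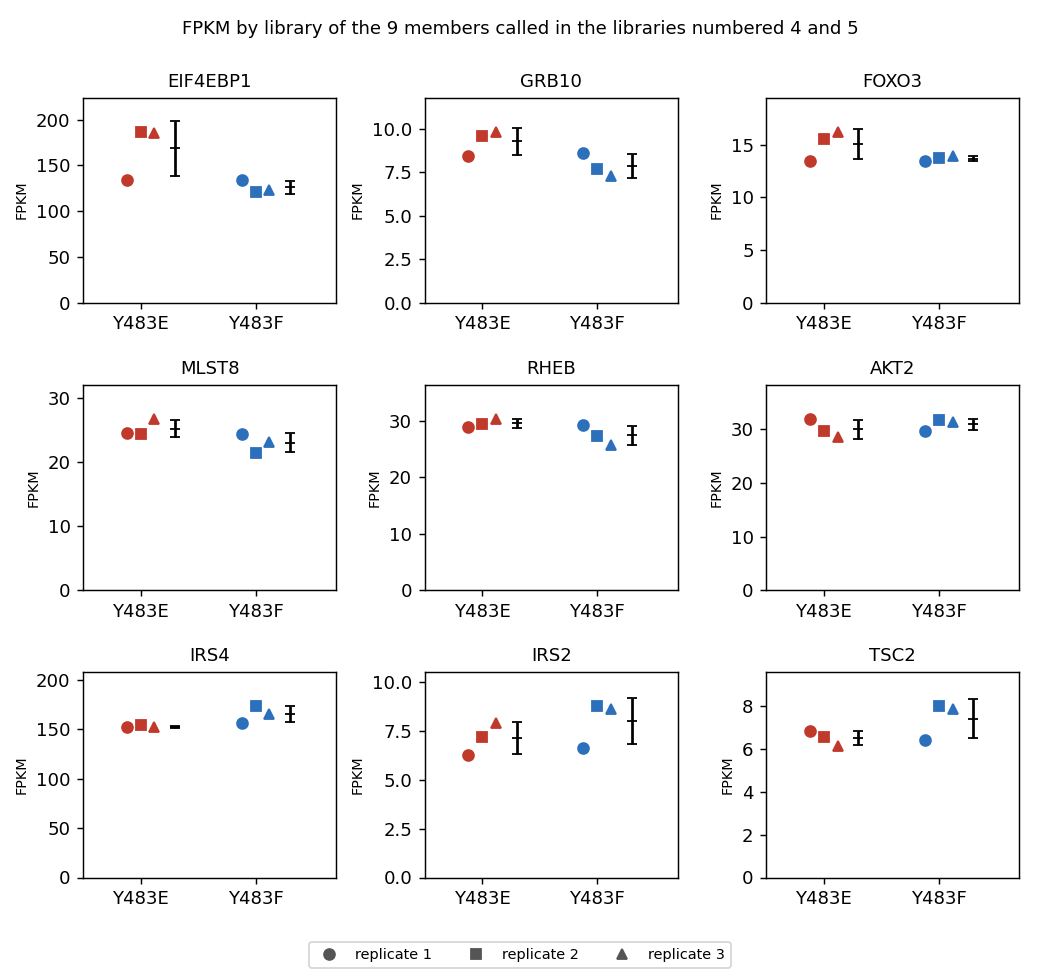
FPKM of the 9 members that edgeR called in replicates 2 and 3, one panel a gene, with Y483E left of Y483F. Points are libraries, bars give the mean and SD of the 3, and vertical axes start at 0. EIF4EBP1 stands at 187 and 185 FPKM in Y483E replicates 2 and 3, above every other library, while the replicates 1 of both forms lie together at 134 FPKM.

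Levels of the tested members ran between a mean of 1.27 FPKM over all libraries for IRS1 and 159 FPKM for IRS4. IRS4 and EIF4EBP1 alone supplied 24.3% and 22.6% of the summed FPKM of the set, and their ranges over the libraries overlapped. GRB2 and GSK3A followed at 37.0 and 36.0 FPKM, again with overlapping ranges, and both lay wholly below EIF4EBP1 and above AKT2. Of all members 13 had a mean of 10 FPKM or more. Within a form the coefficient of variation of a tested member was between 0.445% and 17.8%, with a median of 5.34%.

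**Figure D2:**
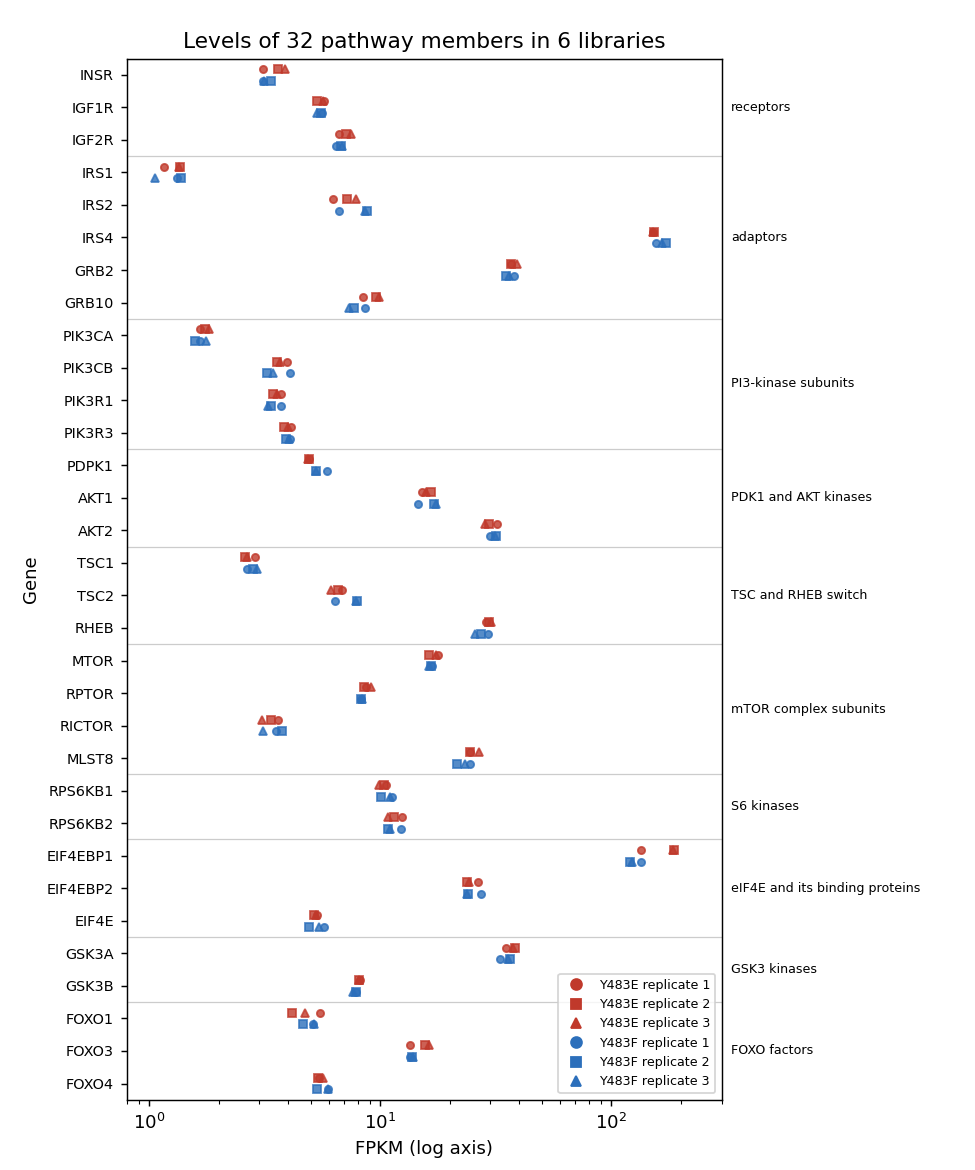
FPKM of the 32 tested members in each library, on a log axis, with members grouped by role. Points are libraries, and those of Y483E stand above those of Y483F in each row. IRS4 and EIF4EBP1 lie apart from all other members, above 100 FPKM in every library.

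The receptors were fitted higher in Y483E in all 3 cases, none past the threshold. IGF2R, which clears IGF2 and carries lysosomal enzymes and is not a signalling kinase, was the most abundant. It was at 6.64, 7.14 and 7.51 FPKM in Y483E replicates 1, 2 and 3, against 6.43, 6.76 and 6.82 FPKM in Y483F. The forms overlapped, and limma gave a log2 difference of 0.077 ± 0.057 (SE; adjusted p = 0.616). INSR, the insulin receptor, averaged 3.53 ± 0.393 FPKM in Y483E and 3.20 ± 0.136 FPKM in Y483F (SD, n = 3 each). IGF1R, the receptor of IGF1, averaged 5.55 ± 0.189 FPKM in Y483E and 5.50 ± 0.128 FPKM in Y483F.

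Among the adaptors, IRS4 was the dominant IRS transcript and was lower in Y483E. IRS4, an IRS protein first found in this cell line, was at 152, 154 and 152 FPKM in Y483E against 157, 173 and 165 FPKM in Y483F. Every Y483E library lay below every Y483F library, and limma gave -0.11 ± 0.048 (adjusted p = 0.413). In replicates 2 and 3 IRS4 fell by 0.15 on the log2 scale (SE 0.040, edgeR adjusted p = 0.0209). IRS2, an IRS protein important in liver, was at 6.25, 7.20 and 7.88 FPKM in Y483E against 6.62, 8.74 and 8.62 FPKM in Y483F. Both forms were lowest in replicate 1, and the ranges overlapped. In replicates 2 and 3 IRS2 fell by 0.21 (SE 0.056, edgeR adjusted p = 0.0209), while the limma estimate over all libraries was -0.15 (adjusted p = 0.638). That estimate moved with single libraries, to -0.067 without Y483E replicate 1 and -0.26 without Y483F replicate 1. IRS1, prominent in muscle and fat, was scarce, at 1.29 ± 0.111 FPKM in Y483E and 1.25 ± 0.170 FPKM in Y483F. Of the IRS4 transcript's exonic length 9.06% overlaps an antisense gene, and the strand of the libraries is not clear from the labels.

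GRB10, an adaptor that binds active insulin receptors and dampens them, was at 8.42, 9.58 and 9.84 FPKM in Y483E against 8.61, 7.69 and 7.31 FPKM in Y483F. The replicates 1 lay together, and replicates 2 and 3 of Y483E stood above all Y483F libraries. In replicates 2 and 3 GRB10 rose by 0.37 ± 0.047 (edgeR adjusted p = 0.000148), against a limma difference of 0.21 ± 0.078 over all libraries (adjusted p = 0.360). No other gene model overlaps its exons. GRB2, which links receptors to RAS, averaged 37.6 ± 1.39 FPKM in Y483E and 36.4 ± 1.33 FPKM in Y483F. The 5 adaptors summed to 205, 209 and 210 FPKM in Y483E against 211, 226 and 218 FPKM in Y483F. IRS4 made up 74.5% of this sum, and 3 of the 5 adaptors were fitted higher, so the sum follows IRS4. The sums did not overlap. The exact permutation test gave p = 0.1, as low as 3 libraries against 3 can reach, and 0.4 after adjustment over the 10 role groups.

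The PI3-kinase subunits showed small differences, none past the threshold. PIK3R3, a regulatory subunit, was at 4.10, 3.83 and 4.01 FPKM in Y483E against 4.05, 3.92 and 4.03 FPKM in Y483F, with a limma difference of -0.0063 ± 0.054 (adjusted p = 0.973). Of its exonic length 17.4% overlaps another model on the same strand. The catalytic subunits PIK3CA and PIK3CB averaged 1.75 and 3.74 FPKM in Y483E and 1.67 and 3.58 FPKM in Y483F. KCNMB3, on the opposite strand, overlaps 35.8% of the exonic length of PIK3CA. The regulatory subunit PIK3R1 averaged 3.59 FPKM in Y483E and 3.45 FPKM in Y483F. PIK3R2, another regulatory subunit, is uncertain. It held 1, 3 and 0 reads in Y483E against 5, 4 and 6 reads in Y483F. A readthrough model shares 87.2% of its exonic length on the same strand, so reads there could not be given to 1 gene.

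PDK1 and the AKT kinases were all fitted lower in Y483E. PDPK1, the gene of PDK1, which phosphorylates AKT, was at 4.90, 4.90 and 4.85 FPKM in Y483E against 5.88, 5.28 and 5.26 FPKM in Y483F. The forms did not overlap, and PDPK1 was the member with the largest difference between the replicates 1, at -0.22. limma gave -0.14 ± 0.058 (unadjusted p = 0.0494, adjusted p = 0.407), and in replicates 2 and 3 edgeR gave -0.12 ± 0.056 (adjusted p = 0.193). Opposite-strand models overlap 23.7% of its exonic length. AKT2, the AKT most tied to glucose uptake, was at 31.9, 29.6 and 28.5 FPKM in Y483E against 29.7, 31.8 and 31.3 FPKM in Y483F. The difference had opposite directions in replicate 1 and in replicates 2 and 3, where AKT2 fell by 0.12 (SE 0.039, edgeR adjusted p = 0.0471). For AKT2 over all libraries limma gave -0.043 ± 0.053 (adjusted p = 0.777). AKT1 averaged 15.9 ± 0.665 FPKM in Y483E and 16.4 ± 1.60 FPKM in Y483F.

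At the switch between AKT and mTORC1, the inhibitor and the activator moved in opposite directions in replicates 2 and 3. TSC2, the GTPase-activating subunit that keeps RHEB inactive, was at 6.81, 6.55 and 6.13 FPKM in Y483E against 6.38, 7.96 and 7.86 FPKM in Y483F. Y483F replicate 1 lay within the Y483E range, and Y483F replicates 2 and 3 lay above all Y483E libraries. In replicates 2 and 3 TSC2 fell by 0.32 (SE 0.042, edgeR adjusted p = 0.000177), beside -0.16 ± 0.086 in limma over all libraries (adjusted p = 0.488) and -0.25 without Y483F replicate 1. RHEB, the small GTPase that activates mTORC1, was at 28.8, 29.4 and 30.3 FPKM in Y483E against 29.2, 27.3 and 25.8 FPKM in Y483F. It rose by 0.17 ± 0.045 in replicates 2 and 3 (edgeR adjusted p = 0.0216), and its limma difference over all libraries was 0.11 ± 0.053 (adjusted p = 0.469). The 3 genes of the switch summed to 38.5, 38.6 and 39.1 FPKM in Y483E against 38.2, 38.1 and 36.6 FPKM in Y483F. RHEB made up 74.6% of this sum, which was higher in every Y483E library (exact permutation p = 0.1, adjusted p = 0.4). TSC1, the partner that stabilises TSC2, averaged 2.70 ± 0.149 FPKM in Y483E and 2.81 ± 0.136 FPKM in Y483F. Models on the other strand, PKD1 among them, overlap 6.01% of the exonic length of TSC2, and none overlaps RHEB.

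The subunits of the mTOR complexes were fitted higher in Y483E for 3 of 4. MLST8, a subunit of both complexes, was at 24.5, 24.4 and 26.7 FPKM in Y483E against 24.4, 21.5 and 23.2 FPKM in Y483F. The ranges overlapped only through replicate 1 of Y483F, and MLST8 rose by 0.19 ± 0.052 in replicates 2 and 3 (edgeR adjusted p = 0.0250). Its limma difference over all libraries was 0.13 ± 0.061 (adjusted p = 0.455). RPTOR, which selects substrates for mTORC1, was at 8.67, 8.48 and 9.09 FPKM in Y483E against 8.25, 8.26 and 8.32 FPKM in Y483F. Its libraries did not overlap, yet the limma difference was 0.071 ± 0.046 (adjusted p = 0.567). The kinase MTOR averaged 17.2 ± 0.827 FPKM in Y483E and 16.6 ± 0.245 FPKM in Y483F. RICTOR, the defining subunit of mTORC2, averaged 3.34 ± 0.266 FPKM in Y483E and 3.46 ± 0.321 FPKM in Y483F.

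Of the direct targets of mTORC1, the S6 kinases were not among the members called above, and EIF4EBP1 had the largest differences. RPS6KB2, one of the S6 kinases, was at 12.4, 11.5 and 10.9 FPKM in Y483E against 12.3, 10.8 and 11.0 FPKM in Y483F (limma 0.022 ± 0.067, adjusted p = 0.916). RPS6KB1, the other S6 kinase, averaged 10.3 ± 0.324 FPKM in Y483E and 10.8 ± 0.655 FPKM in Y483F. EIF4EBP1, which holds eIF4E inactive until mTORC1 phosphorylates it, was at 134, 187 and 185 FPKM in Y483E against 134, 121 and 124 FPKM in Y483F. The replicates 1 were equal to within 0.0045 on the log2 scale, and replicates 2 and 3 of Y483E stood above every other library.

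For EIF4EBP1 limma fitted 0.40 ± 0.13 over all libraries (unadjusted p = 0.0158, adjusted p = 0.323). In replicates 2 and 3 it rose by 0.60 ± 0.038 (edgeR adjusted p = 4.03e-07). DESeq2 over all libraries gave 0.42 ± 0.10 (adjusted p = 0.00962), and the authors' deposited table, which is not separate evidence, lists 0.42 with an adjusted p of 0.00961. The authors' deposited table lists 5 of the 33 members, with GRB10, TSC2, IRS4 and PDPK1 at adjusted p between 0.165 and 0.411. It lists genes at an unadjusted p under 0.05, which are 2.81% of all 58735 rows and 5.29% of the genes that DESeq2 tested. Both shares include genes with few reads. After filters on low genes, 12.2% of genes in limma and 13.4% in edgeR had an unadjusted p under 0.05. EIF4EBP1 carried 2327 to 4673 reads a library, and no other gene model overlaps its exons. EIF4EBP2, its close relative, averaged 24.8 ± 1.49 FPKM in Y483E and 25.1 ± 1.88 FPKM in Y483F. The cap-binding protein EIF4E averaged 5.27 ± 0.083 FPKM in Y483E and 5.34 ± 0.406 FPKM in Y483F.

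Of the targets that AKT restrains, FOXO3 rose in replicates 2 and 3. GSK3A, a kinase that inhibits glycogen synthase, was at 35.0, 38.2 and 37.5 FPKM in Y483E against 32.9, 36.5 and 35.7 FPKM in Y483F (limma 0.073 ± 0.055, adjusted p = 0.625). Another model on the same strand shares 11.6% of the exonic length of GSK3A. GSK3B, its paralog, averaged 8.11 ± 0.067 FPKM in Y483E and 7.81 ± 0.139 FPKM in Y483F, without overlap. FOXO3, a transcription factor that AKT keeps out of the nucleus, was at 13.5, 15.6 and 16.2 FPKM in Y483E against 13.5, 13.7 and 13.9 FPKM in Y483F. The replicates 1 were equal, and FOXO3 rose by 0.20 ± 0.041 in replicates 2 and 3 (edgeR adjusted p = 0.00495). Its limma difference over all libraries was 0.13 ± 0.069 (adjusted p = 0.494). FOXO1 averaged 4.78 ± 0.655 FPKM in Y483E and 4.98 ± 0.286 FPKM in Y483F, and FOXO4 averaged 5.50 ± 0.150 FPKM in Y483E and 5.75 ± 0.356 FPKM in Y483F.

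**Figure D3:**
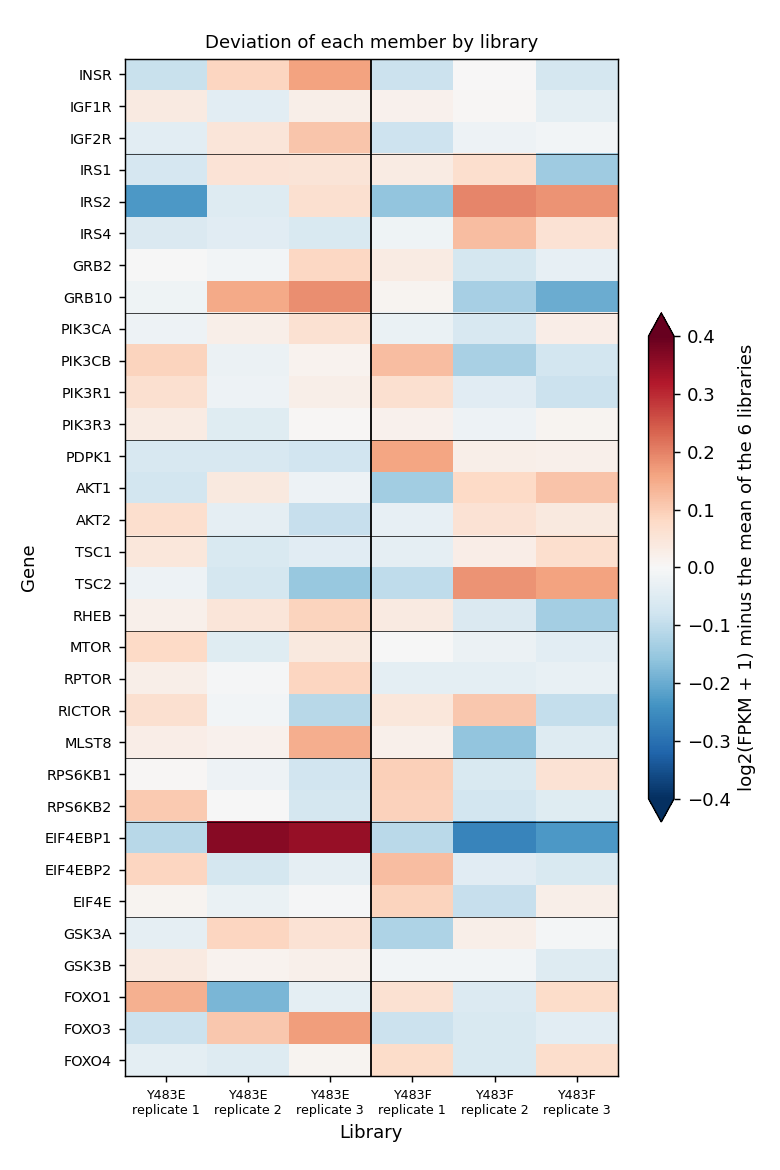
Deviation of each tested member from its mean over the 6 libraries, as log2(FPKM + 1), with Y483E libraries left of Y483F. Red is above the mean, blue below it, and the colours end at 0.4 on either side. EIF4EBP1 and GRB10 are above their means in Y483E replicates 2 and 3, and TSC2 is above its mean in Y483F replicates 2 and 3.

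The difference between the forms was also compared across library numbers, a split picked with earlier results known and with 1 library of each form numbered 1. edgeR's test of the interaction, replicates 2 and 3 minus replicate 1, called EIF4EBP1, GRB10 and TSC2, which is 3 of 32 members (9.38%), against 2.01% of genes. EIF4EBP1 had an interaction of 0.61 ± 0.068 (adjusted p = 0.000212), GRB10 of 0.41 ± 0.085 (adjusted p = 0.0184) and TSC2 of -0.41 ± 0.076 (adjusted p = 0.00920) in that edgeR test. The tools differed, as limma called 0 members in the same test, against 0.0623% of genes, with EIF4EBP1 at an adjusted p of 0.0858. Both tests assume that the lone libraries numbered 1 vary like the others, so that 1 unusual library and a dependence on library number cannot be told apart.

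Between the replicates 1 the members differed by a median of 0.0035 and in replicates 2 and 3 by 0.027. The absolute difference was larger in replicates 2 and 3 for 23 of 32 members (71.9%), against 55.6% of all genes. The differences had the same sign in both for 15 of 32 members (46.9%), against 51.8% of all genes. Other measures of the libraries moved with this. Mitochondrial transcripts took 2.11%, 2.15% and 1.23% of reads in Y483E replicates 1, 2 and 3, against 2.05%, 3.27% and 3.11% in Y483F. Small nucleolar RNAs summed to 41.2, 39.9 and 34.8 CPM in Y483E, against 47.4, 59.8 and 56.6 CPM in Y483F. ATF4, a stress-responsive transcription factor that activates amino acid genes, was at 270, 323 and 335 FPKM in Y483E against 283, 265 and 272 FPKM in Y483F. The part of any of these in the differences of the members was not tested.

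**Figure D4:**
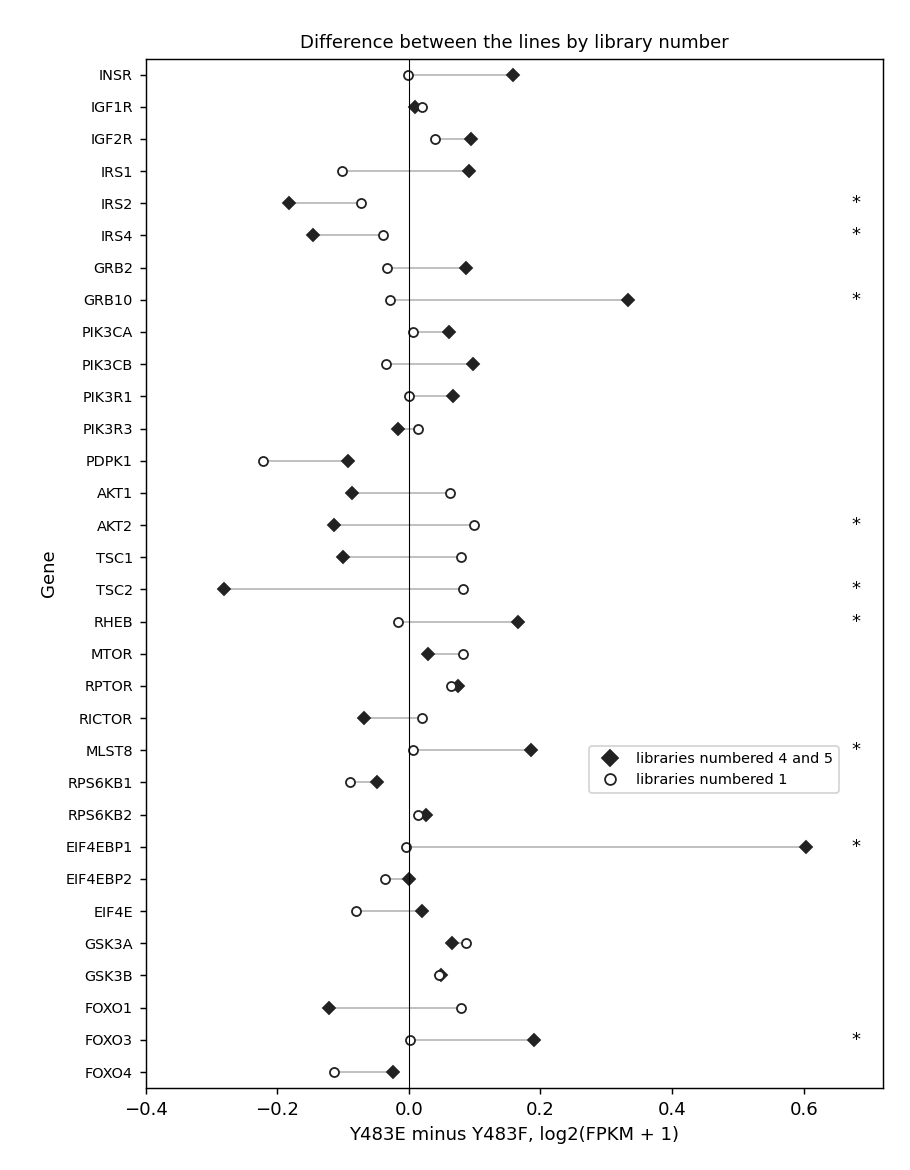
Log2 difference, Y483E minus Y483F, of each tested member in replicates 2 and 3 (numbered 4 and 5, filled) and between the replicates 1 (open), with a star where edgeR called the member in replicates 2 and 3. For EIF4EBP1, GRB10 and TSC2 the open point lies within 0.1 of 0 and the filled one far from it.

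Some members, like many of all tested genes, had the libraries numbered 1 of both forms apart from the rest. For 11 of 32 members (34.4%) both libraries numbered 1 lay outside the range of the other 4, against 25.6% of all tested genes. INSR, IGF2R, IRS2, AKT1, GSK3A and FOXO3 were the 6 that lay below (background 9.78%), and PIK3CB, PIK3R1, PIK3R3, RPS6KB2 and EIF4EBP2 were the 5 that lay above (background 15.9%). The ratio of the catalytic subunits PIK3CA over PIK3CB was 0.422, 0.489 and 0.493 in Y483E replicates 1, 2 and 3, against 0.407, 0.488 and 0.512 in Y483F. The ratio of AKT1 over AKT2 was 0.477, 0.558 and 0.556 in Y483E, against 0.488, 0.537 and 0.559 in Y483F. For these pairs the replicates 1 of both forms lay below all other libraries. The same held for INSR over IGF1R, IRS2 over IRS4 and GSK3A over GSK3B. For FOXO1 over FOXO3 they lay above, and in the remaining pairs compared they overlapped the other libraries. Each ratio with this pattern holds a member listed above, so the ratios are not separate from that count. No share over other pairs of genes was computed. This pattern was noticed in the data and was not tested.

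Related members were also set against each other as ratios of FPKM within a library. Of 12 ratios, 2 did not overlap between the forms, each with p = 0.1 in the exact permutation test, its lowest possible value, and 0.48 after adjustment. EIF4EBP1 over EIF4E was 25.1, 36.0 and 34.96 in Y483E against 23.5, 24.6 and 22.8 in Y483F, and every Y483E ratio lay above every Y483F ratio. RPS6KB1 over RPS6KB2 was 0.851, 0.903 and 0.913 in Y483E against 0.920, 0.926 and 0.995 in Y483F. EIF4EBP1 over EIF4EBP2 was 5.05, 7.88 and 7.62 in Y483E against 4.94, 5.003 and 5.18 in Y483F. FOXO1 over FOXO3 was 0.407, 0.268 and 0.290 in Y483E against 0.381, 0.339 and 0.372 in Y483F. The last 2 ratios overlapped between the forms.

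**Figure D5:**
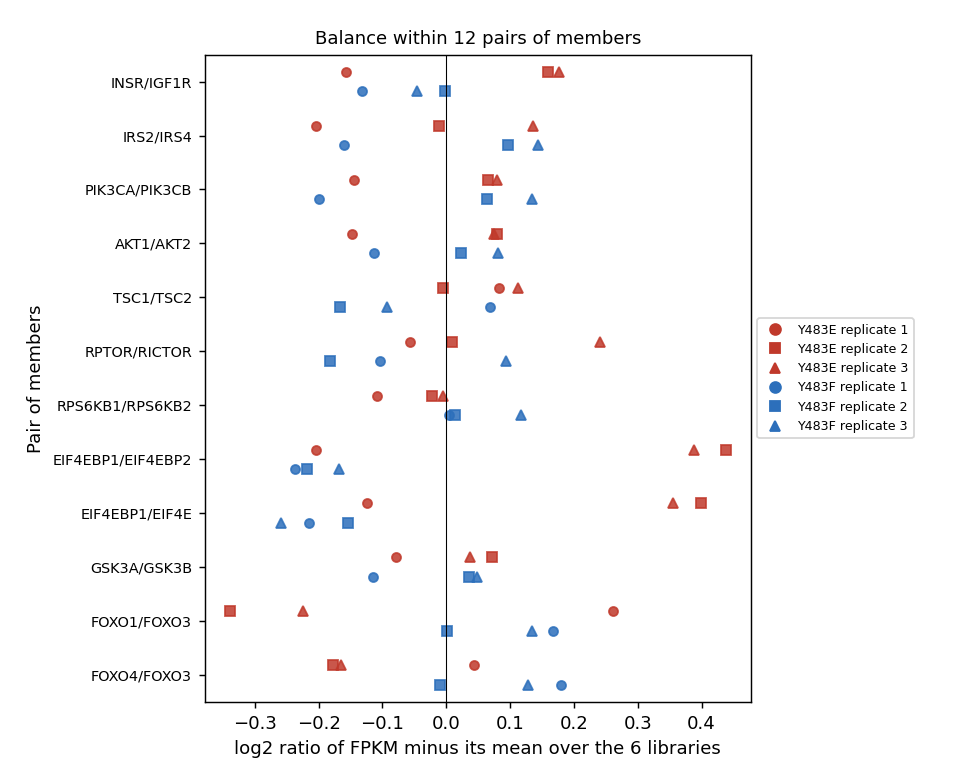
Log2 ratio of FPKM of related members within each library, minus its mean over the 6 libraries, with Y483E points above those of Y483F in each row. EIF4EBP1 over EIF4EBP2 and over EIF4E are high in Y483E replicates 2 and 3 and near their other values in replicate 1.

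The other genes of the pathway were taken from lists by role. limma called 0 of the genes tested in each list over all libraries. Of the 37 tested regulators of mTORC1 and mTORC2, 21 were fitted higher and 16 lower in limma (background 52.8% higher). Their median was 0.031, beside 0.0070 for all genes. DESeq2 called 2 of the 41 regulators it tested, DDIT4 higher and WDR24 lower, against 0.404% of genes, those with few reads included. DDIT4, an inhibitor of mTORC1 induced by stress, was at 24.0, 35.4 and 35.2 FPKM in Y483E against 21.9, 22.7 and 20.7 FPKM in Y483F. All Y483E libraries lay above all Y483F libraries, and the DESeq2 adjusted p was 0.00397, against 0.306 in limma. WDR24, a subunit of GATOR2, which activates mTORC1, was at 11.6, 11.3 and 11.5 FPKM in Y483E against 13.4, 13.8 and 15.01 FPKM in Y483F. It was lower in every Y483E library, with a DESeq2 adjusted p of 0.0497 and 0.257 in limma. Antisense models overlap 41.2% of the exonic length of DDIT4 and 35.7% of that of WDR24, and reads of these pairs could not be told apart without strand.

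In replicates 2 and 3 edgeR called 12 of 40 regulators, 5 higher and 7 lower, against the 15% of all genes given above. SESN2, a leucine sensor that inhibits mTORC1, was at 27.5, 35.01 and 39.7 FPKM in Y483E against 27.2, 26.1 and 27.7 FPKM in Y483F. ITFG2, a subunit of the KICSTOR complex, which tethers the inhibitor GATOR1 to lysosomes, was at 4.04, 3.80 and 3.69 FPKM in Y483E against 4.41, 4.90 and 4.80 FPKM in Y483F. SESN2 rose in replicates 2 and 3 (edgeR adjusted p = 8.05e-05), with the replicates 1 alike, and ITFG2 fell (edgeR adjusted p = 0.00474). Opposite-strand models overlap 18.7% of the exonic length of ITFG2. Of 17 other ligands, receptors and adaptors 2 rose and 2 fell, against the same 15% of all genes. Among those that fell was PTPN1, a phosphatase that switches off the insulin receptor. PTPN1 was at 28.6, 26.7 and 28.0 FPKM in Y483E against 32.5, 29.5 and 32.6 FPKM in Y483F. It was lower in every Y483E library, with a log2 difference of -0.18 between the replicates 1 and -0.19 ± 0.049 in replicates 2 and 3 (edgeR adjusted p = 0.0176). IGFBP2, which binds insulin-like growth factors outside the cell, rose and was at 16.5, 16.1 and 14.3 FPKM in Y483E against 14.6, 13.4 and 12.2 FPKM in Y483F. SH2B1, an adaptor that strengthens insulin receptor signalling, fell and was at 10.9, 10.8 and 10.1 FPKM in Y483E against 10.5, 13.3 and 13.2 FPKM in Y483F.

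Of 20 other outputs of the kinases edgeR called 6 in replicates 2 and 3, 4 higher and 2 lower, against 15% of all genes. TBC1D1, an AKT substrate that controls glucose transporter traffic, rose and was at 3.96, 4.18 and 4.38 FPKM in Y483E against 3.79, 3.33 and 3.56 FPKM in Y483F. Of 16 FOXO target genes 1 rose, CDKN1B, a brake on the cell cycle, and 1 fell, IRS2, which is itself a member, against 15% of all genes. CDKN1B was at 45.6, 45.1 and 44.9 FPKM in Y483E against 45.03, 38.9 and 39.9 FPKM in Y483F. Y483F replicate 1 stood with the Y483E libraries. GADD45A, a stress and growth arrest gene, was next in level, at 23.8, 26.2 and 27.1 FPKM in Y483E against 22.2, 25.3 and 24.8 FPKM in Y483F, with overlap.

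Promoter windows, 250 bases before to 50 after a gene's start, were read from RefSeq on GRCh38.p14 for 31 of the 33 members, all but EIF4EBP1 and MLST8, which the counts below leave out. Windows are shown for 4 of the 9 members called in replicates 2 and 3. TSC2 and RHEB are the inhibitor and the activator of the switch, and GRB10 and IRS4 are adaptors. IRS2, the other adaptor called there, is not shown. Where a gene has several starts, the first listed is given. Capitals mark, on either strand, the GC box GGGCGG, the CCAAT box CCAAT, the E-box CACGTG, the ETS motif CCGGAAG and the amino acid response element TGATGNAA. TSC2 lies at chr16:2047735-2048034 (plus strand), RHEB at chr7:151519846-151520145, GRB10 at chr7:50793404-50793703 and IRS4 at chrX:108736514-108736813 (all minus strand).
TSC2: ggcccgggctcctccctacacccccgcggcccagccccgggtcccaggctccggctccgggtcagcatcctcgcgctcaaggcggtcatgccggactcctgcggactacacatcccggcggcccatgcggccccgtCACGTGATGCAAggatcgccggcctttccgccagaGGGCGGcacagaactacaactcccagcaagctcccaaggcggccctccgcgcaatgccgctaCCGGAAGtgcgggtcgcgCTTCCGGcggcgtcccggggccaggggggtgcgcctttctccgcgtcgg
RHEB: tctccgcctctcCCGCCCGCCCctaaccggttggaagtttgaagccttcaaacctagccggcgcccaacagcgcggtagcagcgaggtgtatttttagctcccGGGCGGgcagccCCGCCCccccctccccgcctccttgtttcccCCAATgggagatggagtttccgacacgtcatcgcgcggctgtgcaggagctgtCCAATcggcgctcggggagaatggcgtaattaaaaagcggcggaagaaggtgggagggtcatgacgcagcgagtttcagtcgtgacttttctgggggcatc
GRB10: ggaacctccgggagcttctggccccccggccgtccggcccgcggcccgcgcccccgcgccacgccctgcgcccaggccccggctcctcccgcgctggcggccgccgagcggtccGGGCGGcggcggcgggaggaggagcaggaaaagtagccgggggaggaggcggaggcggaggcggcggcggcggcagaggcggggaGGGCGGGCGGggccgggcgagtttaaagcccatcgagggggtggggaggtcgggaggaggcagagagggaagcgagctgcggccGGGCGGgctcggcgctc
IRS4: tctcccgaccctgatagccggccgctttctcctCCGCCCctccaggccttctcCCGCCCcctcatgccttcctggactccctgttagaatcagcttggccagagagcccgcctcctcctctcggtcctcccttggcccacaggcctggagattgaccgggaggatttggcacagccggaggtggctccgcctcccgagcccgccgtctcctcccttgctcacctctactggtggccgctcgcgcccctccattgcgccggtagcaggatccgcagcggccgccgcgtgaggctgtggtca

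In the TSC2 window the E-box overlaps the amino acid response element, upstream of the start. RHEB and GRB10 hold 4 GC boxes each, some of them overlapping, and IRS4 holds 2 in the window shown. The response element occurred in 2 of 31 members, TSC2 and PIK3R1, against 2.45% of tested genes with a window and 3.62% of all 35116 windows. The E-box occurred in 5 of 31 members, against 13.2% of tested genes and 7.26% of all windows. The GC box occurred in 26 of 31, against 79.3% and 45.0%, the CCAAT box in 14 of 31, against 43.8% and 34.6%, and the ETS motif in 5 of 31, against 23.7% and 10.3%. The FOXO motif GTAAACA occurred in 2 of 31, PIK3CA and FOXO4, against 3.45% and 3.42%, and the cyclic AMP response element TGACGTCA in 0 of 31, against 4.06% and 1.85%. These are matches of letters and not sites of binding.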

How the data were processed

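Poly-T selected RNA of 6 HEK293 libraries, 3 Y483E and 3 Y483F, was sequenced. The submitters' processing notes name featureCounts 1.5.0-p3, HISAT2 2.0.5, DESeq, DESeq2 and StringTie 1.3.3b without their roles, and no source used here names a genome build. The authors deposited FPKM values of 58735 genes with gene lengths, and, for 1652 genes, read counts, the signal of counts divided by size factors, log2 fold changes and p-values. Of the genes, 58690 had the positions of GENCODE 29 models on GRCh38, from which exon overlaps were taken.

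The test was limma 3.58.1 (trended variance, two-sided) on log2(FPKM + 1), so that folds of low genes are understated, over genes that averaged 1 FPKM or more, with Benjamini-Hochberg adjustment over all 12833. Multiplying FPKM by length and library total gave reads that were whole within 0.01 for 100% of values above 0 and equal to the listed counts for all 1652 genes. On them edgeR 4.0.16 (quasi-likelihood, TMM) and DESeq2 1.42.0 were run. Y483E is always set over Y483F. Libraries held 17204498 to 23284592 reads, and depth limits genes with few reads. For ratios and sums an exact permutation test, two-sided, was used. The fits were also run on simulated reads, with the same relative spread for every gene and no effect of library number. That run does not cover the differences between library numbers seen here.

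The members, role groups and lists were chosen with earlier results of these data known. Values in every library are given for members with an unadjusted limma p under 0.05, past a threshold in any fit or in the authors' table, or most abundant in their role; of other pathway genes, up to 4 a list. RPTOR was added after its values were seen. One list of related kinases and phosphatases is not reported here. Other settings were pseudocounts of 0.1 and 0.5, filters, scalings, array weights, a replicate block and leaving out each library. A term for library number, 1 against 4 and 5 together, was also used.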

Additional observations from a re-analysis of the deposited data

Results flagged for a closer look

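edgeR's test of the interaction called 3 of 32 members (9.38%), against 2.01% of all genes. For these the difference between Y483E and Y483F changed between the libraries numbered 4 and 5 and those numbered 1. The change was 0.61 on the log2 scale for EIF4EBP1 (adjusted p = 0.000212), 0.41 for GRB10 (adjusted p = 0.0184) and -0.41 for TSC2 (adjusted p = 0.00920). limma called 0 members in the same test, and 8 of 12833 genes. Each form has 1 library numbered 1, assumed to vary like the others. The labels do not say what the numbers stand for, and what separates these libraries was not tested.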

How the results depend on the processing

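Over all libraries limma called 0 members with the term for library number, no trend, and no filter or one at 5 FPKM. The same held with median-of-ratios or quantile scaling and with pseudocounts of 0.5 and 0.1. Other settings called more members: 1 by DESeq2 (0.404% of genes), 2 by edgeR with no filter (2.15%) and 5 by limma with array weights (14.7%). In replicates 2 and 3 limma called 3 (5.45% of genes) and edgeR 9 (15%). Leaving out a library gave 0 members throughout in limma and 0 to 3 in edgeR. edgeR called 3 without Y483F replicate 1 (6.1% of genes) and 1 without Y483E replicate 1 (1.06%). The median of the members, 0.025, lay between -0.00068 (without Y483F replicate 3) and 0.051 (without Y483F replicate 1) in edgeR and between 0.0068 and 0.044 in limma. The interaction was called for 3 members by edgeR (2.01% of genes) and 0 by limma (0.0623%). With the replicate block limma called 0 members (0% of genes) and edgeR 0 (0.0364%), as without it. Deviations of same-numbered libraries from their form's mean correlated at 0.0562, 0.139 and -0.0949, so the numbers were not used as pairs. Not every library correlated best with its own number. Of 419 values of the 14 named members under 30 settings, 9 had the opposite sign, as did 28 of 532 values of the 18 tested members not named. Without one library limma gave 0.041 to 0.12 for IGF2R, 0.029 to 0.11 for GSK3A and 0.075 to 0.20 for FOXO3. PIK3R3, near 0, became 0.0042 with quantile scaling, 0.00996 in edgeR without Y483E replicate 2, and -0.024 to 0.016 in limma without one library. RPS6KB2 ran from -0.025 to 0.073 in limma without one library, and in edgeR was -0.031 without Y483E replicate 1, -0.0088 without Y483F replicate 2 and -0.0031 without Y483F replicate 3. The cause was not tested. Depth limits genes with few reads, such as PIK3R2.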
